A study of Mus musculus with 27 samples.

Results

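Gained peaks were hypoP peaks, sites of hypophosphorylated RNA polymerase II (Pol II), that mouse embryonic stem cells showed after knockdown of WDR43 and not in control cells. A gained peak was a peak of hypoP library shWDR43-1 that shared at least 1 bp with a peak of shWDR43-2 and overlapped no peak of either hypoP shCtl library. The rule found 4423 gained peaks among the 23688 peaks present in both shWDR43 libraries (18.7%), out of 31473 peaks in shWDR43-1 and 227913 peaks in all 17 peak lists used. The number depends on the rule: with shWDR43-2 left out it was 11193, and with a score of at least 100 required it was 1299. The other 19265 peaks of both shWDR43 libraries overlapped a shCtl peak and are called shared. The gained peaks were thus chosen by the presence and absence of hypoP peaks themselves, and their scores in the hypoP libraries are given as a description without a test.

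The shWDR43 cells carried a short hairpin RNA against Wdr43 and the shCtl cells a control hairpin, both in embryonic stem cells labelled wild type and grown with serum and LIF. The hypoP shWDR43 labels give neither genotype nor treatment beyond the title. Pol II was mapped by chromatin immunoprecipitation sequencing (ChIP-seq) with antibody 8WG16 (hypoP), with a Ser5P antibody and with a Ser2P antibody, in 2 shWDR43 and 2 shCtl libraries each. RNA was sequenced in 2 shWDR43 and 2 shCtl libraries. WDR43 itself was mapped with a FLAG antibody in cells with Fbio-tagged WDR43 treated with DRB, ActD (actinomycin D) or DMSO, in FB-tagged cells and in a cFB knock-in (KI), in 1 library each.

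The largest Pol II subunit ends in a tail of repeated heptapeptides. Polymerase that assembles at promoters carries a largely unphosphorylated tail, which 8WG16 recognises; phosphorylation at serine 5 accompanies initiation and promoter escape, and phosphorylation at serine 2 accompanies productive elongation and is high near the 3' ends of genes. WDR43 belongs to the small-subunit processome, which matures ribosomal RNA in the nucleolus.

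The antibody labels of the hypoP shCtl libraries name a supplier and catalogue number, and those of the hypoP shWDR43 libraries name the clone alone. Whether both pairs were prepared together is not given, so preparation and knockdown cannot be told apart in the choice of gained peaks. The shWDR43 lists were also longer, with 31473 and 24485 peaks in shWDR43 against 19542 and 19561 in shCtl. The reverse pattern was rarer: of 17924 peaks present in both shCtl libraries, 139 (0.775%) overlapped no shWDR43 peak. RNA levels are in FPKM, a unit scaled for transcript length, and the title of the RNA data names spike-in. Wdr43 RNA stood at 21.2 and 20.7 FPKM in shWDR43 and 82.3 and 78.2 FPKM in shCtl, and no gained peak lay at its locus. The shWDR43 RNA values were below both shCtl values. All 6 embryonic stem cell markers were detected in every library. Their summed level was 1253 and 1124 FPKM in shWDR43 and 2159 and 2108 FPKM in shCtl, and 5 of the 6, Pou5f1 among them (554 and 459 FPKM in shWDR43, 1038 and 1057 FPKM in shCtl), passed as lower and 0 as higher in the limma test of all genes described with the RNA results. The summed level of 12 fibroblast markers was 329 and 442 FPKM in shWDR43 and 326 and 348 FPKM in shCtl, with Lum and Dcn at 0 throughout; of the 8 tested, 2 passed as higher and 2 as lower. Sums of 4 trophectoderm markers were low, at 1.8 and 1.7 FPKM in shWDR43 and 1.0 and 0.9 FPKM in shCtl, with 0 of the 4 tested. Those of 4 primitive endoderm markers were 4.7 and 5.1 FPKM in shWDR43 and 3.2 and 3.2 FPKM in shCtl. Of the 2 tested, 1 passed as higher, Gata6 (1.9 and 1.3 FPKM in shWDR43, 0.6 and 0.6 FPKM in shCtl), and 0 as lower. Sox7 of that list had 0.3 and 0.4 FPKM in shWDR43 and 0.8 and 1.2 FPKM in shCtl. The part of other cells in the results was not tested.

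The promoters of 6 genes show the genomic context of gained peaks that covered an annotated gene start. They belong to the genes with the largest RNA changes whose start lay in a gained peak and that had 1 promoter entry, 4 with higher and 2 with lower RNA in shWDR43. Each sequence is the 250 bases before the start from the RefSeq promoter table (GRCm38.p6), 5' to 3' on the gene's strand; the peaks themselves are on build mm9. All 6 are on the minus strand, Cpz at chr5:35525627-35525876, Dcxr at chr11:120727285-120727534, Ms4a10 at chr19:10974701-10974950, Shisa4 at chr1:135375064-135375313, Calca at chr7:114636358-114636607 and Nlrc4 at chr17:74459109-74459358. Capitals mark matches on either strand to the GC box, searched as GGGCGG, or to the CCAAT box, searched by those letters.
Cpz: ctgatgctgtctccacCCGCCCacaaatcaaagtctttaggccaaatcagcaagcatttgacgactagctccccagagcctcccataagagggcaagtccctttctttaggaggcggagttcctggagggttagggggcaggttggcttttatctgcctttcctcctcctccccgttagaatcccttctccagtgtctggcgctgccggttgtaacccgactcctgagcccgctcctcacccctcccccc
Dcxr: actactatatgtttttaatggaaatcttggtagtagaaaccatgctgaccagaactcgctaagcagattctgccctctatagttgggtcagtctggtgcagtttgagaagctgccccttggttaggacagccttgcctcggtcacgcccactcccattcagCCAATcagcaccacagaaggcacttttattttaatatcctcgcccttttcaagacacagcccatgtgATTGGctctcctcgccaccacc
Ms4a10: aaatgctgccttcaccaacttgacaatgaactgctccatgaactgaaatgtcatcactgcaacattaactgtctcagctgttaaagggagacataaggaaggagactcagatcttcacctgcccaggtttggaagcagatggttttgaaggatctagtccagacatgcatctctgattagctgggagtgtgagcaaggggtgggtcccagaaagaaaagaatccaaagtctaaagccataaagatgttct
Shisa4: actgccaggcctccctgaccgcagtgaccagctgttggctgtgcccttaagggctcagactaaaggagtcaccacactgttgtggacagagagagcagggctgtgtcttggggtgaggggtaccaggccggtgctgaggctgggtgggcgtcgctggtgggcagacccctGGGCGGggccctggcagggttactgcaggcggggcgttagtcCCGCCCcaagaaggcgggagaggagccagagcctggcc
Calca: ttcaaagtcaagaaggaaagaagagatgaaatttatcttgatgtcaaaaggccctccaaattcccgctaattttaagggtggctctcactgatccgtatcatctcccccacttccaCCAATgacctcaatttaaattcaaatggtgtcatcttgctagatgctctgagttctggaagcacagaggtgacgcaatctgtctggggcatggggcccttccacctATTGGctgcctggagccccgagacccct
Nlrc4: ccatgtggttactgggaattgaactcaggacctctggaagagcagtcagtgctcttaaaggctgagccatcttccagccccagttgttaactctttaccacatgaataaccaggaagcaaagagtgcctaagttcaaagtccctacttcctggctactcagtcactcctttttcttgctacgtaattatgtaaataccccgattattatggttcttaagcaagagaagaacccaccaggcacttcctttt
The search also covered the core promoter element TATAAA, found in 12.4% of the promoter entries. It covered the E-box in the form CACGTG (6.02% of entries) and the AP-1 site in the form TGAGTCA (4.46% of entries) too, and none of these 3 motifs is in the 6 windows. The Shisa4 promoter held 2 GC boxes and the Cpz promoter 1, and 32.7% of the 32851 promoter entries held at least 1. The Dcxr and Calca promoters each held 2 CCAAT boxes, a motif in 33.8% of entries. The Ms4a10 promoter had 0 CpG dinucleotides, Nlrc4 had 2, Calca 4, Dcxr 5, Cpz 8 and Shisa4 9, against a median of 6 (quartiles 2 and 16) over all entries. A full p53 site, searched by its name as a degenerate motif, lay in none of the 6 and in 0.0639% of entries, and the repeat unit of that site, searched singly, lay in the Cpz promoter alone of the 6 and in 7.13% of entries. No motif or base composition was shared by all 6 promoters, and matches describe letters, not bound factors.

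Gained peaks were weaker and narrower than shared ones. The score, the authors' own value for each peak, had a median of 158 in shWDR43-1 for gained peaks (quartiles 110 and 223, highest 839), against 566 for shared peaks. In shWDR43-2 the median score was 80.0 for gained peaks and 302 for shared peaks. The share with a score of at least 100 in shWDR43-2 was 30.3% of gained and 88.3% of shared peaks. Many gained peaks thus lay close to the lowest score of 50 that the lists hold in shWDR43-2 while being clear of it in shWDR43-1. Median width was 1304 bp for gained and 1791 bp for shared peaks. Gained peaks covered 6.73 Mb in all and shared peaks 41.3 Mb.

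**Figure D1:**
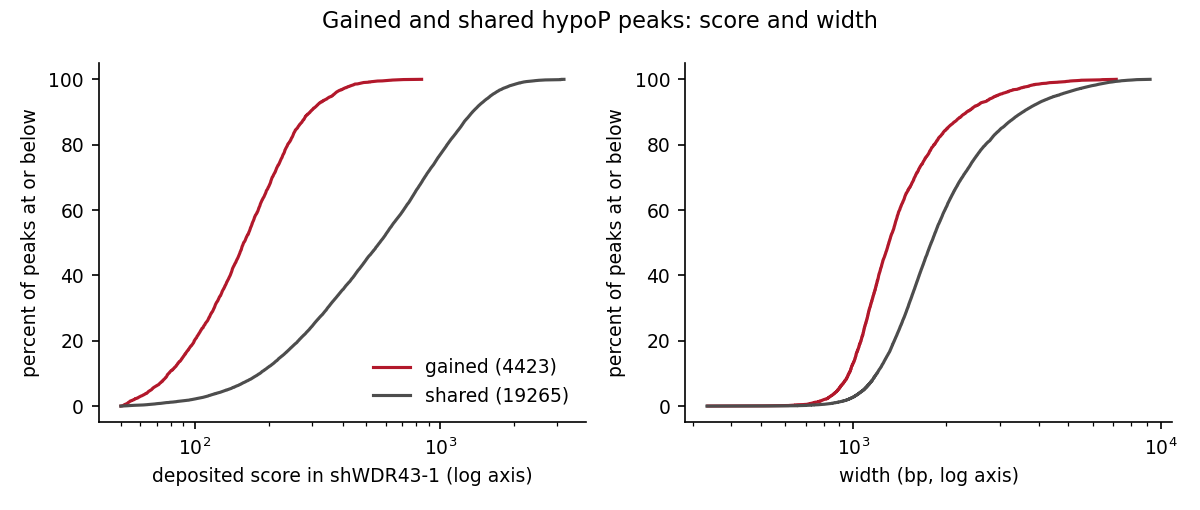
Cumulative percentage of gained (red, 4423) and shared (grey, 19265) hypoP peaks at or below each score in shWDR43-1 (left) and each width in bp (right), both on log axes. The gained curves lie to the left, with medians of 158 against 566 for score and 1304 against 1791 bp for width.

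Most gained peaks lay far from any control peak. The gap to the nearest shCtl peak had a median of 27867 bp, 77.6% of gained peaks were over 10 kb away and 47 lay within 1 kb. The members nearest the rule's limit were a peak inside Dnajc6 at chr4:101181125-101182931, 21 bp from a shCtl peak, one at chr14:9574597-9575484, 45 bp away, and one inside Irak3 at chr10:119597165-119604148, 48 bp away. The peaks just excluded included one at chr1:173018411-173019380, which overlapped a shCtl peak by 6 bp, and one inside Plekhb2 at chr1:34915220-34916593, with 21 bp. The third was a 334 bp peak on an unplaced sequence that lay wholly within a shCtl peak, so overlaps of a few bases decided few memberships.

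The gained peaks with the highest scores were mostly inside or outside genes. The highest score, 839 in shWDR43-1 and 417 in shWDR43-2, belonged to a peak at chr12:89159209-89161436, outside coding loci and 24042 bp from Gm2022. The next was at one end of Zfp41, a zinc finger gene, at chr15:75455489-75457745, with scores of 773 and 301. Then came peaks inside Map3k7, the TAK1 kinase (740 and 391), at chr11:19734649-19737330, 87114 bp from Spred2 (709 and 286), and at chr7:12062777-12065975, 75109 bp from Zscan4f (694 and 342). Those that followed lay at an end of Bfsp2, a lens filament gene (688), inside Rxra, the retinoid X receptor (657), inside Tcf7, a Wnt pathway transcription factor (654), 2328 bp from 1700013G24Rik (649) and at an end of Scn3b, a sodium channel beta subunit (644). Of these 10, 3 lay at an end of a coding locus, 3 inside one and 4 outside. One of them, that of Scn3b, overlapped peaks of the FB, cFB-KI and DMSO maps of WDR43, and the other 9 overlapped none of the maps.

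The widest gained peak, 7154 bp, lay inside Trp73, which encodes the p53 relative p73, at chr4:153454779-153461932. Trp73 RNA was 10.6 and 9.2 FPKM in shWDR43 and 2.0 and 1.9 FPKM in shCtl. Both shWDR43 values lay above both shCtl values, a log2 fold change of 1.88 with an SE of 0.15, past the test at an adjusted p of 0.00102 (limma, Benjamini-Hochberg over all 12452 genes). The other wide peaks, of 6453 to 7028 bp, lay inside Irak3 and Grik4 and outside coding loci at chr4:153201079-153208106 and chr5:53856121-53862908. Irak3, an inhibitor of innate immune signalling, had 7.8 and 7.5 FPKM in shWDR43 and 6.8 and 6.7 FPKM in shCtl and did not pass the test (log2 fold change 0.16, adjusted p 0.350 in limma).

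A smaller share of gained than of shared peaks lay at the ends of genes. How often peaks placed at random would lie there was not tested. A peak was placed at an end when it came within 1 kb of either end of a coding locus, because the deposited loci carry no strand. By that measure 729 gained peaks (16.5%, 95% exact interval 15.4 to 17.6%) were at an end, against 50.8% (50.1 to 51.5%) of shared peaks. Inside a coding locus were 1362 gained peaks (30.8%), against 13% of shared peaks, and outside coding loci 2332 (52.7%), against 36.2%. Intervals here and elsewhere cover counting error only, and peaks of 1 library are not replicates.

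The share at an end was also compared within bins of score, the hypoP value of the library that the rule used, as a description. Below a score of 100 in shWDR43-1, 13.9% of 891 gained and 19.6% of 414 shared peaks were at an end. From 200 to 300 the shares were 18.6% of 1038 gained and 26.5% of 2383 shared peaks. At 400 or more they were 26.3% of 133 gained and 63.6% of 12407 shared peaks. That bin is open at the top and its scores are not matched, as gained peaks end at 839 and shared peaks reach 3188. From 400 to 600, a range added after the values were seen, the shares were 24.3% of 115 gained (16.8 to 33.2%) and 43.7% of 3275 shared peaks (42.0 to 45.4%). In all 5 score bins the gained share was the lower, and the intervals of the sets overlapped in the lowest bin alone. The share of gained peaks at an end increased with score, from 13.9% in the lowest bin to 26.3% in the highest.

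Of the 2332 gained peaks outside coding loci, 1807 (77.5%) lay outside noncoding loci as well, 288 (12.3%) lay at an end of a noncoding locus and 237 (10.2%) inside one. Their median distance to the nearest coding locus was 34935 bp, against 50521 bp for shared peaks outside coding loci. By chromosome, gained peaks made up 15.9 to 21.6% of the peaks of both shWDR43 libraries on the autosomes. On the X chromosome there were 109 gained and 820 shared peaks, a gained share of 11.7%, below that of every autosome.

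Several long genes held clusters of gained peaks. Sash1, an adaptor protein of immune and adhesion signalling, Camkmt, a calmodulin methyltransferase, and St6galnac3, a sialyltransferase, each held 5, in loci of 164, 368 and 523 kb. Col6a4, a type VI collagen, and Zfp462, a zinc finger gene, each held 4. Sash1 RNA was 8.9 and 7.6 FPKM in shWDR43 and 5.9 and 5.6 FPKM in shCtl (log2 fold change 0.45, adjusted p 0.0377 in limma). Zfp462 RNA was 14.5 and 11.8 FPKM in shWDR43 and 21.8 and 20.2 FPKM in shCtl (-0.64, adjusted p 0.0121), a call lost with the libraries centred on their median (-0.31, adjusted p 0.0772). So a cluster of gained peaks accompanied higher RNA at Sash1 and lower RNA at Zfp462, while Camkmt (0.24) and St6galnac3 (-0.37) did not pass and Col6a4, with at most 1.2 FPKM, was not tested.

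The Zscan4 cluster on chromosome 7, a family of genes of the 2-cell-like state that cycles in embryonic stem cells, held 8 gained and 3 shared peaks between 11378590 and 11988667. Gained peaks lay at ends of Zscan4b, Zscan4d and Zscan4e, with scores of 400, 282 and 449 in shWDR43-1. A further 5 lay outside coding loci, and 1 of them, with a score of 633, overlapped the noncoding Zscan4a locus. Zscan4b RNA was 17.4 and 14.5 FPKM in shWDR43 and 13.7 and 11.1 FPKM in shCtl, with a log2 fold change of 0.34 and an adjusted p of 0.12 in limma. Zscan4d (0.26, adjusted p 0.215) and Zscan4e (0.34, adjusted p 0.176) were likewise above 0 without passing. So was Zscan4a (0.39, adjusted p 0.0975 in limma). Zscan4f (0.37, adjusted p 0.139) and Zscan4c (0.04, adjusted p 0.848) had a shared and no gained peak at an end and did not pass either. Values above 0 were thus not particular to cluster genes with a gained peak. These genes are near-identical copies, so reads may have been split among them in both assays. With the RNA libraries centred on their median Zscan4b, Zscan4d and Zscan4e passed as higher, and with the replicate block Zscan4b and Zscan4e did.

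WDR43 occupied a smaller share of gained than of shared peaks. The FB map had a peak at 27.0% of gained peaks (25.7 to 28.3%), against 79.4% (78.8 to 79.9%) of shared peaks. The cFB-KI map had one at 20.3% of gained and 65.8% of shared peaks, and the DMSO map at 18% of gained and 64.4% of shared peaks. All 3 of these maps had a peak at 297 gained peaks (6.71%), and none of them did at 2707 (61.2%). The 3 maps were of 1 library each and gave the same order. They are of cells without the knockdown. The rule chose gained peaks for lacking a hypoP peak in shCtl cells, and shared peaks had one there. The comparison is thus a description, and bins of the shWDR43 score do not match the sets on hypoP signal in shCtl.

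The share of gained peaks with WDR43 hardly moved with score. It ran from 23.5 to 31.6% over the 5 score bins of the FB map, whereas for shared peaks it was 42.5% below a score of 100 and 90.6% at 400 or more. From 400 to 600 it was 31.3% of gained and 80.9% of shared peaks. It differed more by position: the FB map had a peak at 55.0% of the gained peaks at locus ends, 18.3% of those inside and 23.3% of those outside. At locus ends 90.8% of shared peaks had one. In DRB-treated cells, in which the kinase that releases paused Pol II is inhibited, WDR43 lay at 1.47% of gained and 12.2% of shared peaks. In ActD-treated cells, in which transcription is blocked, WDR43 lay at 0.226% of gained and 0.529% of shared peaks. Those 2 lists were short, with 4426 and 407 peaks against 31189 in DMSO.

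**Figure D2:**
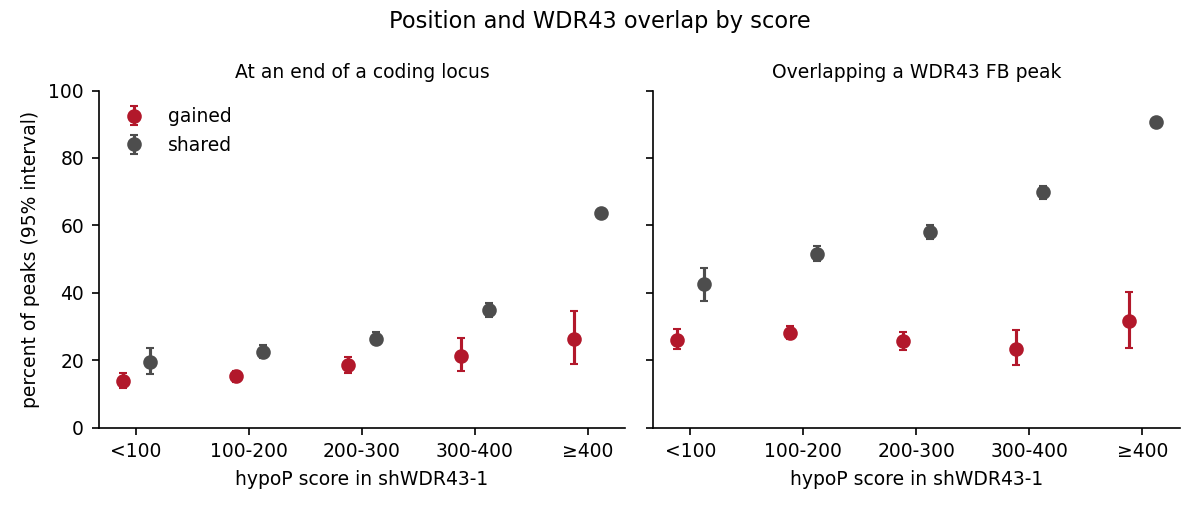
Percentage of gained (red) and shared (grey) hypoP peaks at an end of a coding locus (left) and overlapping a WDR43 peak of the FB map (right), by score in shWDR43-1, with exact 95% intervals. Gained peaks lie lower in each bin, at 26.3% against 63.6% at ends and 31.6% against 90.6% for WDR43 in the highest bin, which is open at the top and holds shared scores of up to 3188 against 839 for gained.

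Ser5P and Ser2P peaks were scarce at gained peaks. Ser5P peaks overlapped 95 and 138 gained peaks in shWDR43 and 36 and 67 in shCtl, 2.63% ± 0.69 and 1.16% ± 0.50 of the 4423 (SD, n = 2 each). Both shWDR43 libraries were above both shCtl libraries. The difference was 1.47 percentage points with an exact two-sided permutation p of 0.33, the smallest that 2 against 2 libraries allow. At shared peaks the means were 25.3% ± 2.57 in shWDR43 and 8.76% ± 1.61 in shCtl, with the same p. The Ser5P lists were longer in shWDR43, at 6535 and 7589 peaks against 1879 and 2520 in shCtl.

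Ser2P peaks overlapped 108 and 102 gained peaks in shWDR43 and 103 and 104 in shCtl, 2.37% ± 0.10 and 2.34% ± 0.02 (exact two-sided permutation p of 1). The shWDR43 and shCtl libraries overlapped in their values, and the sign of the difference depended on how gained peaks were defined. At locus ends Ser2P overlapped 67 and 71 of 729 gained peaks in shWDR43 and 61 and 66 in shCtl, and all 4 Ser2P libraries had a peak at 54 of the 4423. Gained peaks with Ser2P in both conditions lay at the far end of Dusp6, a phosphatase that restrains ERK signalling (all 4 libraries), and of Plk2, a polo-like kinase (3 of the 4), with strands taken from RefSeq.

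**Figure D3:**
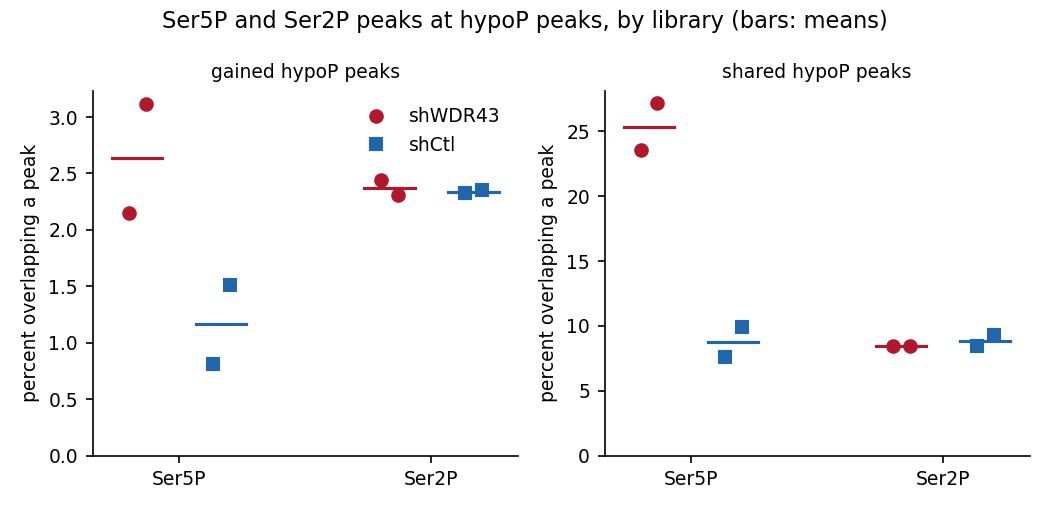
Percentage of gained (left) and shared (right) hypoP peaks that overlap a Ser5P or Ser2P peak, 1 point per library and bars at the means, shWDR43 in red and shCtl in blue; the panels have different vertical scales. At gained peaks Ser5P stood at 2.63% in shWDR43 and 1.16% in shCtl, and Ser2P at 2.37% and 2.34%.

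A Ser5P peak present in both shWDR43 libraries and in no shCtl library lay at 27 gained peaks (0.610%) and at 1564 shared peaks (8.12%), while 6.72% of all peaks of both hypoP shWDR43 libraries had one. The corresponding Ser2P pattern lay at 8 gained peaks (0.181%), against 0.511% of all. Thus gained hypoP peaks carried fewer new Ser5P peaks than the hypoP peaks as a whole, most of which were shared peaks with higher scores. A Ser5P peak of either shWDR43 library, new or not, lay at a smaller share of gained than of shared peaks in each score bin. The shares were 3.76% and 13.8% from 100 to 200, and 3.51% and 16.8% from 300 to 400. Of the 27, 8 lay at locus ends and touched 11 genes, which are named here after their values were seen. Notch3, a Notch receptor, had 20.4 and 18.8 FPKM in shWDR43 and 6.7 and 6.9 FPKM in shCtl (log2 fold change 1.40, adjusted p 0.00109 in limma), and its gained peak at chr17:32300700-32304345 covered the start. Ets1, a transcription factor, had 1.9 and 2.0 FPKM in shWDR43 and 0.6 and 0.5 FPKM in shCtl (0.93, adjusted p 0.0116), and entered the test through its shWDR43 values alone. Rprm, a p53-induced inhibitor of the G2 to M transition in human cells, had 4.1 and 3.4 FPKM in shWDR43 and 1.9 and 1.4 FPKM in shCtl (0.84, adjusted p 0.0109).

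These 3 genes were higher in both shWDR43 libraries than in both shCtl libraries. Rcor2 (-1.08), a corepressor of the CoREST complex, Tlcd1 (-0.92) and Rpl23a (-0.53), a ribosomal protein gene, passed as lower, and with the libraries centred Rpl23a no longer did (-0.20, adjusted p 0.112). Ascl2, Mark2, Nek8 and Stk11 did not pass, and Chgb, with at most 0.3 FPKM, was not tested. Nek8, Tlcd1 and Rpl23a share 1 gained peak of 5472 bp, and Rcor2 and Mark2 share another. Genes at gained peaks with a new Ser5P peak thus had RNA changes of both signs, with limits on the lower side. The Rcor2 peak lay at the far end of the gene and had scores of 58.4 and 59.0, near the lowest of 50. Rpl23a was lower as were all 82 ribosomal protein genes tested.

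RNA of genes with a gained peak at an end was higher more often, and lower less often, than that of all genes. Gained peaks lay at an end of 782 of 20202 coding loci (3.87%), and 400 of these genes passed the filter of a mean FPKM of at least 1. Of the 400, 68 (17%) passed as higher in shWDR43, against 6.10% of all 12452 genes tested, and 102 (25.5%) passed as lower, against 42.7% of all (limma on log2(FPKM + 1), Benjamini-Hochberg adjusted p under 0.05). Their median log2 fold change was -0.11, against -0.39 over all genes. The values for all genes include a general fall, as summed FPKM was 687051 and 681178 in shWDR43 and 1015232 and 1040749 in shCtl. Of the 68, 22 had a shCtl mean under 1 FPKM and passed the filter through shWDR43 alone; with a mean of at least 1 required in each group, a filter added after the values were seen, 46 of 347 (13.3%) were higher, against 5.36% of all. In bulk RNA a change per cell and a change in the share of a cell type cannot be told apart.

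Removing any 1 of the 4 RNA libraries left 0 genes past the threshold in limma, among these genes and among all 12452, as the fit then has 1 library in an arm. The median log2 fold change of the 400 genes then ran from -0.19 to -0.07, against -0.45 to -0.34 over all genes. With the libraries centred on their median, which puts the median of all genes at -0.06 in place of -0.39, 106 (26.5%) were higher and 42 (10.5%) lower, against 13% and 20.9% of all genes, and the median of the 400 turned to 0.22.

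Genes with and without a shared peak at their ends were set apart. Of 251 tested genes with gained peaks alone, 57 (22.7%) were higher and 38 (15.1%) lower; their median change was 0.03. Of 149 tested genes that had a shared peak at an end as well, 11 (7.38%) were higher and 64 (43.0%) lower, and the median change was -0.37. The 9198 tested genes with shared peaks alone had 463 (5.03%) higher, 4237 (46.1%) lower and a median of -0.41. The shares of genes with both kinds of peak were close to those of genes with shared peaks alone. Of the 251, 30 passed the filter through shWDR43 alone, 19 of them higher. With a mean of at least 1 in each group, 38 of 207 genes with gained peaks alone (18.4%) were higher and 32 (15.5%) lower, against 8 of 140 (5.71%) and 63 (45%) with both kinds and 418 of 8935 (4.68%) and 4184 (46.8%) with shared peaks alone. Genes with gained peaks alone had lower RNA, with a median mean level of 3.0 FPKM against 10.4 FPKM for those with shared peaks alone.

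Genes were also compared within 5 bins of their mean FPKM over the 4 libraries, which includes the changed shWDR43 values and so does not match the groups on level. In the lowest bin, 1 to 2.53 FPKM, 16.3% of 141 genes with a gained peak at an end were higher, against 7.19% of all genes. From 2.53 to 5.68 FPKM the shares were 21.6% of 88 and 8.07% of all genes, and in the highest bin, from 27.2 to 209791 FPKM, 6 of 43 genes and 2.81% of all. With a mean of at least 1 in each group the lowest bin had 6 of 93 genes (6.45%) higher, against 3.41% of all, and the next 14 of 83 (16.9%), against 7.54%; the other bins held no gene that this removes. In all 5 bins the share of higher genes was above that of all genes. The share of lower genes was below it in all 5.

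The share of higher genes increased with the score of the gained peak. By the best score in shWDR43-1 at a gene's ends, 2 of 66 genes (3.03%) were higher below 100, 19 of 157 (12.1%) from 100 to 200, 19 of 116 (16.4%) from 200 to 300, 15 of 36 (41.7%) from 300 to 400 and 13 of 25 (52%) at 400 or more. The share of lower genes was 39.4% in the lowest of these bins and 12% in the highest. Medians of the log2 fold change were -0.38, -0.15, -0.00, 0.39 and 0.72. Genes with shared peaks alone showed no such increase, with 16.3% of 43 higher below 100, 9.92% of 514 from 300 to 400 and 4.38% of 8022 at 400 or more. The score is a hypoP value of a library that the rule used, so these shares are a description. A shared peak also had a shCtl peak, which a gained peak lacks, so equal scores do not stand for equal changes. The top bin is open, and over all positions gained scores end at 839 and shared ones reach 3188. With a mean of at least 1 in each group, the shares of higher genes at gained ends were 1.69% of 59, 11.3% of 141, 12% of 100, 34.5% of 29 and 38.9% of 18, from the lowest score bin to the highest, and the median of the highest bin was 0.14 in place of 0.72. At 300 or more without a shared peak at an end, 22 of 37 genes (59.5%) were higher and 1 was lower, and with the filter in each group 14 of 27 (51.9%) were higher and 1 lower.

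**Figure D4:**
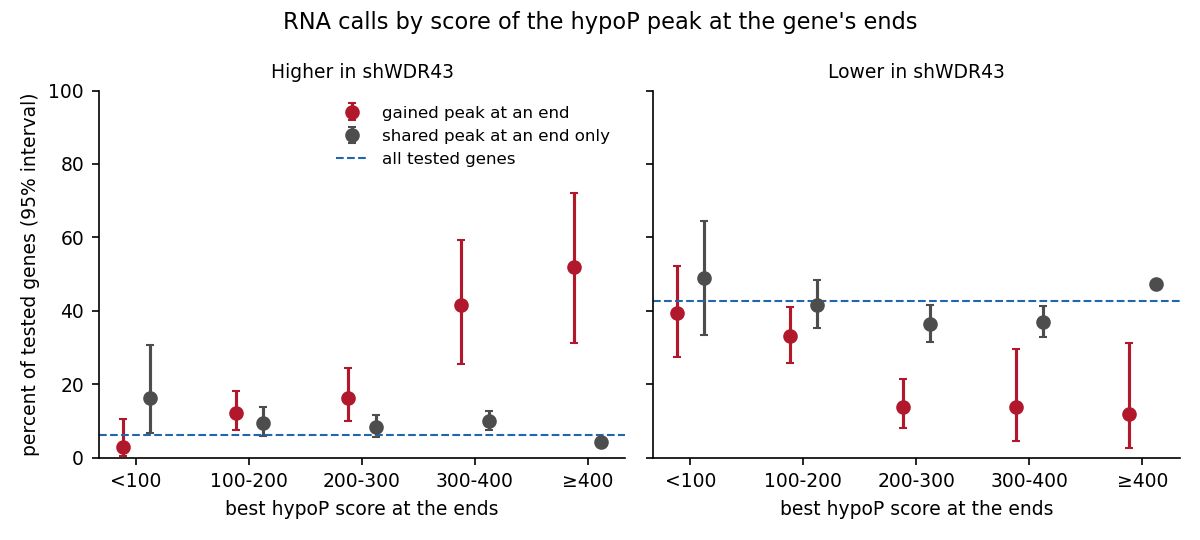
Percentage of tested genes whose RNA passed as higher (left) or lower (right) in shWDR43, by the best hypoP score at the gene's ends, for genes with a gained peak at an end (red) and genes with shared peaks alone (grey), with exact 95% intervals; dashed lines mark all 12452 genes. Higher genes make up 3.03% of genes with the weakest gained peaks and 52% of those with the strongest, against 6.10% of all genes. Genes that passed the filter through shWDR43 alone are included. The top bin is open, and over all positions gained scores end at 839 and shared ones reach 3188.

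Gained peaks inside genes showed a smaller difference. Of 1104 genes with gained peaks inside only, 762 were tested, and 82 (10.8%) were higher and 225 (29.5%) lower; the median change was -0.20. At a score of 300 or more, 21 of 93 (22.6%) were higher and 21 lower. Genes nearest to gained peaks outside coding loci, and with none at an end or inside, were grouped by distance. Within 10 kb, 24 of 256 (9.38%) were higher and 115 (44.9%) lower; from 10 to 50 kb, 27 of 423 (6.38%) were higher and 213 (50.4%) lower; beyond 50 kb, 18 of 322 (5.59%) were higher and 161 (50%) lower. At a score of 300 or more and within 50 kb, 9 of 66 (13.6%) were higher and 28 (42.4%) lower, against 6.10% and 42.7% of all genes. Noncoding loci with a gained peak at an end had 14 of 74 (18.9%) higher and 25 (33.8%) lower, against 5.05% and 35.3% of all 1782 noncoding loci tested.

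The largest rises at genes with a gained peak at an end included genes close to 0 in shCtl: Cpz, Ms4a10, Shisa4 and Scn3b had a shCtl mean under 1 FPKM and entered the test through their shWDR43 values alone. Cpz, a Wnt-binding carboxypeptidase, had 6.8 and 5.8 FPKM in shWDR43 and 0.6 and 0.5 FPKM in shCtl, 2.23 ± 0.18 higher on the log2 scale (SE; adjusted p 0.00102, limma). The choice of the largest rises and falls required both shWDR43 values to lie outside the shCtl range. The Cpz gained peak at chr5:35866019-35868880 had scores of 612 and 257, lay 47512 bp from the nearest shCtl peak and overlapped the FB, cFB-KI and DMSO maps. Ano3, an anoctamin membrane protein, had 11.5 and 9.4 FPKM in shWDR43 and 1.8 and 1.6 FPKM in shCtl (2.08 ± 0.16, adjusted p 0.000992). Its gained peak, with scores of 621 and 305, covered the start, lay 171392 bp from any shCtl peak and overlapped no WDR43 peak. High RNA in shWDR43 thus came at gained starts with WDR43, as at Cpz, and without it, as at Ano3.

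Dcxr, a dicarbonyl and xylulose reductase, had 36.2 and 37.0 FPKM in shWDR43 and 8.0 and 8.6 FPKM in shCtl (2.02 ± 0.13, adjusted p 0.000717). Its gained peak at chr11:120587559-120589189 had scores of 183 and 101, above the medians of gained peaks (158 and 80.0), and the short locus also had a shared peak at an end. Plk2 had 90.8 and 72.2 FPKM in shWDR43 and 23.6 and 17.5 FPKM in shCtl (1.94 ± 0.18, adjusted p 0.00109), with its gained peak (152 and 58.9) at the far end of the gene. Dcxr and Plk2 were the members of the p53 target list with a gained peak at an end, and both had a shared peak at an end too.

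Ms4a10 (6.7 and 4.1 FPKM in shWDR43, 0.8 and 0.4 FPKM in shCtl), Shisa4 (6.0 and 4.9 in shWDR43, 0.7 and 0.7 in shCtl) and Scn3b (6.1 and 4.8 in shWDR43, 1.0 and 0.8 in shCtl) had no shared peak at an end. Their log2 fold changes were 1.98, 1.92 and 1.76 (adjusted p 0.00187, 0.00109 and 0.00130). The gained peaks of Ms4a10 and Shisa4 covered the start. 1700007K13Rik (61.9 and 56.0 FPKM in shWDR43, 14.2 and 19.9 in shCtl; log2 fold change 1.75) and Cd109, a membrane-anchored binder of TGF-beta (6.6 and 5.0 in shWDR43, 1.0 and 1.1 in shCtl; 1.72), were the others named. As the choice required, both shWDR43 libraries were above both shCtl libraries in each of these 9. Of the 9, 7 had no shared peak at an end. Among these 7, the gained peak of 1700007K13Rik lay 380 bp from a shCtl peak.

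The largest falls showed that a gained peak at the start can go with lower RNA. Calca, the gene of calcitonin and its related peptide, had 2.7 and 3.1 FPKM in shWDR43 and 14.8 and 11.9 FPKM in shCtl (-1.87 ± 0.16, adjusted p 0.00102, limma), with a gained peak at chr7:121779260-121780337 over its start (scores 299 and 151). Nlrc4, an inflammasome sensor subunit, had 0.2 and 0.2 FPKM in shWDR43 and 3.5 and 2.7 FPKM in shCtl (-1.77 ± 0.22, adjusted p 0.00176). Enox1 had 16.8 and 11.4 FPKM in shWDR43 and 41.7 and 37.8 FPKM in shCtl (-1.45 ± 0.19, adjusted p 0.00195), and the FB, cFB-KI and DMSO maps had a peak at its gained start. Calca, Nlrc4 and Enox1 had no shared peak at an end. Nlrc4 had a shWDR43 mean under 1 FPKM and entered the test through shCtl alone, as did Gtsf1, Robo4 and Pde9a among the other falls.

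Morc1, a germline factor that silences transposons, had 13.4 and 11.8 FPKM in shWDR43 and 37.2 and 31.5 FPKM in shCtl (-1.38 ± 0.15, adjusted p 0.00130), with a gained peak of 3017 bp and a score of 404 at one end and a further one inside. Gtsf1, a piRNA pathway factor (-1.56), Cabp1, a calcium-binding protein (-1.53), Zmat4 (-1.48), Robo4, an endothelial guidance receptor (-1.38), Pde9a, a cGMP phosphodiesterase (-1.36), and Pla2g10, a secreted phospholipase (-1.27), complete the 10, with adjusted p from 0.00111 to 0.0174. Gtsf1 was listed at 0 in 1 shWDR43 library and at 1.1 FPKM in the other, against 4.5 and 2.3 FPKM in shCtl. Scores in shWDR43-1 were 152 to 644 at the 9 rises and 69.2 to 404 at the 10 falls, so the ranges overlapped.

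**Figure D5:**
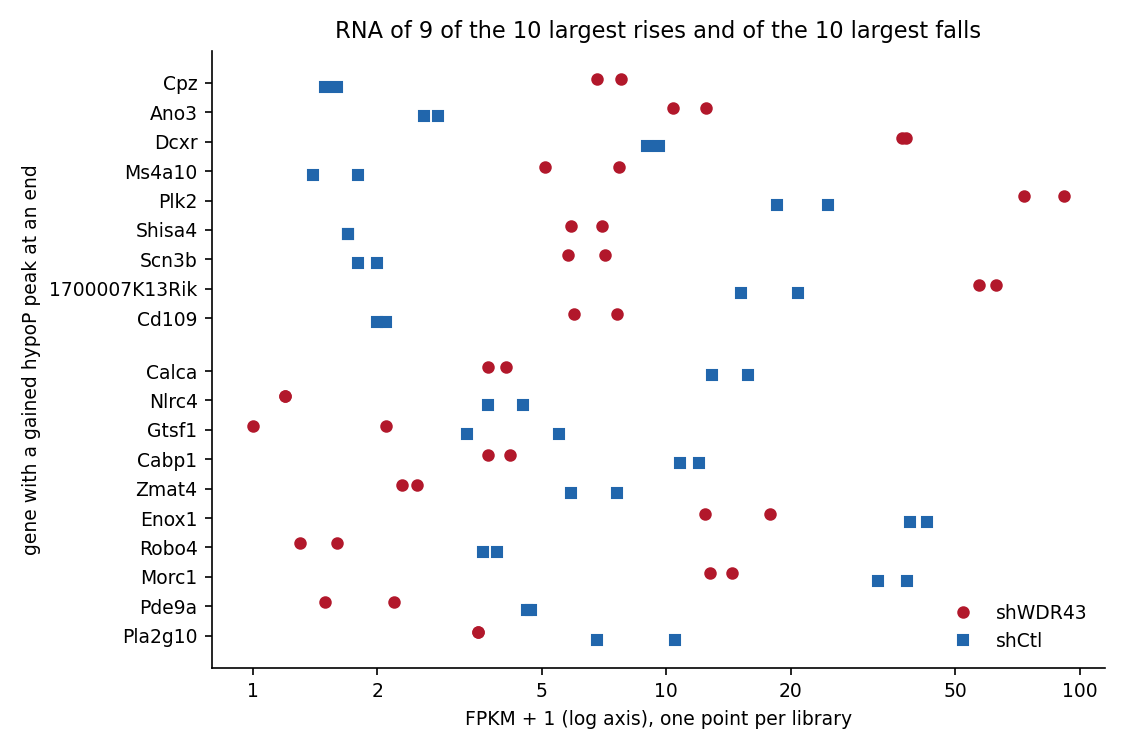
RNA of 9 of the 10 largest rises (upper) and of the 10 largest falls (lower) among genes with a gained hypoP peak at an end, as FPKM + 1 on a log axis with 1 point per library, shWDR43 as red circles and shCtl as blue squares. The choice of the 19 genes required shWDR43 and shCtl points that do not overlap. They run from Cpz at 6.8 and 5.8 against 0.6 and 0.5 FPKM to Pla2g10 at 2.5 and 2.5 against 5.8 and 9.5 FPKM.

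Of 15 gene lists, 9 had a member with a gained peak at an end, where 3.87% of coding loci had one. The 2-cell-like list had 4 of 16 measured members (25%), the 3 Zscan4 genes and Gm4340, whose RNA was 42.8 and 40.7 FPKM in shWDR43 and 16.4 and 27.6 FPKM in shCtl (log2 fold change 0.94, adjusted p 0.0145, limma). Keratins and trophectoderm genes had 2 of 11, Krt19 and Ascl2; Krt19, an epithelial keratin, had 5.9 and 6.2 FPKM in shWDR43 and 1.7 and 2.1 FPKM in shCtl (1.28, adjusted p 0.00177). The p53 targets had 2 of 32 (6.25%), and 17 of the 32 (53.1%) were higher and 1 (3.12%) lower in RNA, against 6.10% and 42.7% of all genes, while 30 of the 32 (93.8%) had a shared peak at an end, against 53.2% of all coding loci. The RNA of the p53 list was thus higher mostly at genes without a gained peak. Of keratins and trophectoderm genes 4 of 7 tested were higher and 1 lower, and of the 2-cell-like list 3 of 14 were higher and 0 lower. The gained peak of Gm4340 lay at the far end of the gene, which also had a shared peak at an end.

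The remaining lists had at most 1 such member. Tagln, an actin-binding protein of the YAP and actin-linked list (1 of 19), had 8.3 and 9.2 FPKM in shWDR43 and 2.7 and 3.1 FPKM in shCtl (1.32, adjusted p 0.00142, limma), and Axl of that list, a receptor kinase with a gained peak inside, rose by 0.92 (adjusted p 0.00730). Dppa2, a pluripotency-associated chromatin factor (1 of 32 naive genes), had a log2 fold change of -0.80 (adjusted p 0.0165; -0.47 and 0.0665 with the libraries centred), Dusp6 (1 of 21 immediate early genes) one of -1.08 (0.00742), and Rcl1 (1 of 33 processome genes) one of -0.72 (0.00637). Rpl23a was the 1 of 84 ribosomal protein genes, and Ccnt1, the cyclin of the pause release kinase (-0.25, adjusted p 0.266), the 1 of 26 pause and elongation genes, not past the test. Falls were common in these lists, with 26 of 32 naive (median -0.82), 31 of 33 processome (-0.84) and 82 of 82 tested ribosomal protein genes (-0.83) lower. Pause and elongation genes had 17 of 26 lower. Of the YAP and actin-linked list 9 of 17 tested were higher and 2 lower, and of immediate early genes 4 and 4 of 16. Of basement membrane and primitive endoderm genes 5 of 12 tested were higher and 1 lower. The falls of Dppa2, Rcl1 and Rpl23a were thus not particular to members with a gained peak. Gained peaks inside genes lay in Hspg2, the basement membrane proteoglycan perlecan (0.83, adjusted p 0.00333), in Sesn1, a p53-induced sestrin (-0.26, not past the test), and in Ell, an elongation factor (0.07, not past the test). Primed and germ layer genes, fibroblast markers, ATF4 and CHOP genes, replication-dependent histone genes and small noncoding RNA loci had no member with a gained peak at an end or inside.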

How the data were processed

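The authors deposited 1 peak list per ChIP library, with positions, MACS peak names and a score for each peak. Per the submitters' processing notes, reads were aligned with Bowtie2 to mm9; caller version, threshold, control and depth: not given in the sources used here. Positions are printed 1-based. The RNA table that the authors deposited holds 1 FPKM value per gene and library for 38582 genes, a unit inferred from Cufflinks, which the processing notes name with TopHat; its title names spike-in. The authors' deposited unadjusted p-value column was not used. RNA depth is unknown; summed values were 687051 and 681178 in shWDR43 and 1015232 and 1040749 in shCtl. The table's heading states 2 biological replicates. For ChIP, nothing says whether numbers 1 and 2 mark cultures or hairpins, so p-values measure the spread between these samples only.

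Peaks overlapped by at least 1 bp; shares carry exact (Clopper-Pearson) 95% intervals, and library means were compared by exact permutation. RNA was tested with limma 3.58.1 (R 4.3.3, intensity trend) on log2(FPKM + 1) for the 12452 genes with a mean of at least 1, with Benjamini-Hochberg adjustment; this scale understates changes of low genes. Overlapping and antisense genes are uncertain, as strand use in counting is not stated. Both steps were tested on simulated data. RefSeq (GRCm38.p6) gave a strand for 74.4% of the 782 genes with a gained peak at an end, so starts and far ends were not summed over genes. Genes named were Wdr43, those at the 10 highest scores and 5 widest gained peaks, the 10 largest rises and falls with libraries apart, list members with a gained peak and the 5 loci with most gained peaks; 1 gene that this rule picks is not reported here. Members, lists and rules were chosen with earlier results of these data known. Input, construct, chrTAP and chrCLIP samples are not used here.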

Additional observations from a re-analysis of the deposited data

How the results depend on the processing

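The number of gained peaks was 4415 with overlap of 50% of the shorter peak, 4376 with no shCtl peak within 1 kb, 4457 from shWDR43-2 and 4423 with the replicate block (same-numbered libraries compared), but 1299 with a score of at least 100, and 4882 to 11193 without 1 library, the highest without shWDR43-2. The share at locus ends was 19.9% with a score of at least 100, 26.5% with a window of 5 kb and 14.4 to 18.4% without 1 library. The FB share was 28.5% with a score of at least 100, 29.1% with a WDR43 peak within 1 kb and 25.4 to 31.4% without 1 library. The Ser5P difference kept its sign throughout. The Ser2P difference turned to -0.23 percentage points with a score of at least 100, -0.022 from shWDR43-2 and -0.25 within 1 kb, and ran from -0.10 to 0.074 without 1 library.

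Without a filter on low values, 19 of 782 genes at ends (2.43%) were higher and 10 (1.28%) lower, against 0.718% and 1.64% of all genes. With centred libraries 106 of 400 (26.5%) were higher and 42 (10.5%) lower, against 13% and 20.9% of all. A window of 5 kb gave 110 of 769 (14.3%) higher and 228 (29.6%) lower. Gained peaks of score at least 100 gave 47 of 155 (30.3%) higher and 30 (19.4%) lower. In the fit used for these 2 settings 6.10% of all genes were higher and 42.7% lower. For genes with gained peaks inside only the main fit gave 82 of 762 higher (10.8%) and 225 lower (29.5%). Without a filter 13 of 1104 (1.18%) were higher and 26 (2.36%) lower. Centred libraries gave 186 of 762 (24.4%) higher and 98 (12.9%) lower. A score of at least 100 gave 43 of 285 (15.1%) higher and 69 (24.2%) lower. Fits without 1 RNA library, where limma assumes that the arm with 1 library varies like the other, are given here as effect sizes. The median log2 fold change of genes with gained peaks inside only then ran from -0.26 to -0.16, against -0.45 to -0.34 over all genes. With the replicate block 74 (18.5%) were higher and 112 (28%) lower at ends, and 86 (11.3%) and 256 (33.6%) inside only. Of all genes 6.75% were then higher and 47.6% lower. The correlation of deviations of same-numbered RNA libraries was 0.05, but 2 pairs cannot decide whether the numbers pair the libraries.

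Of 40 genes past the threshold that the naming rule picks, 36 passed with the same sign after centring (not Dppa2, Rpl23a, Zfp462 and Tcf7), 7 without a filter, 40 with the replicate block and 0 without any 1 library, and none of the 40 turned its sign in these fits. Among genes not past it, centring turned Sesn1 (0.068), Ccnt1 (0.078), Zfp41 (0.12) and Stk11 (0.12), and leaving out 1 library turned Ascl2 (-0.067 to 0.22), Ell (-0.0060 to 0.14), Camkmt (-0.0045 to 0.48) and Nek8 (-0.21 to 0.24). Centring brought Map3k7 and Irak3 past the threshold as higher, and the block Mark2 as lower. The causes were not tested. Unknown ChIP depth limits what absence of a peak can show.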
